A study of Mus musculus with 64 samples.

Results

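The 9 Stat and Socs genes Stat2, Stat3, Stat4, Stat5a, Stat5b, Stat6, Socs1, Socs3 and Cish were followed through 6 chromatin features of B cells. They were taken by name, and all 9 were found among 34328 protein-coding and lncRNA genes of the RefSeq table. All 9 are autosomal. For each gene the region was the gene body with 2 kb added on either side, and the value was the percent of that region that lay under peaks of a library. The cells were splenic CD23+ B cells of female F1 mus x cast mice, whose mothers were C57BL/6 with a heterozygous Xist deletion and whose fathers were castaneus, so that the deletion background was common to all groups. They were taken without stimulation (0 h) or after 12 or 24 h in 1 µM CpG, DNA that is sensed by TLR9. The assay was CUT&RUN, where a nuclease is brought to the target by an antibody and cuts the DNA nearby. The labels give neither an age nor which animals carried the deletion, and they do not say whether animals were pooled. The lists hold peaks of the Cast allele, so 1 of the alleles of each gene is described and the C57BL/6 allele was not analysed here.

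STAT proteins are transcription factors that JAK kinases phosphorylate at cytokine receptors, after which they pair, enter the nucleus and bind DNA. SOCS proteins and CISH are inhibitors of that signal, and their genes are themselves switched on by STATs, which closes a feedback loop. In B cells this pathway carries the signals of interleukins and interferons that steer survival, class switching and plasma cell formation. Of the features mapped here, H3K27ac marks active promoters and enhancers, H3K9me3 marks heterochromatin, and H3K27me3 and H2AK119Ub are the repressive marks written by the Polycomb complexes PRC2 and PRC1, of which Suz12 and Ring1B are subunits.

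H3K27me3 had 3, 3 and 4 libraries at 0, 12 and 24 h, H2AK119Ub had 4, 3 and 5, and H3K9me3 had 4 per time. The titles of the 12 H3K9me3 libraries read H3K29me3, and the mark is named here by their antibody label. H3K27ac, Ring1B and Suz12 had 3 per time. Read depth is unknown, so no value here has a counting interval, and the number of libraries limits the precision. The labels call the replicates biological but do not tie them to animals. The histone mark lists grew with time: the mean share of the autosomes under peaks went from 2.11% through 4.28% to 9.66% for H3K27me3, from 1.59% through 5.20% to 5.36% for H2AK119Ub, and from 1.58% through 3.48% to 3.43% for H3K27ac. The lowest peak height kept in a list, in coverage, also differed, from 9 to 10 at 0 h to 4 to 6 at 24 h for H2AK119Ub. For H3K27me3 it ran from 2.93 to 6.90 at 0 h and from 3.61 to 5.35 at 12 h, and was exactly 6 in every 24 h list. For H3K27ac it ran from 7.71 to 29.9 at 0 h, 6.82 to 10.7 at 12 h and 4.46 to 20.4 at 24 h. The part of these heights in the differences between times was not tested. A rise at a gene is therefore read beside the median difference of all genes. Suz12 and Ring1B lists hold a fixed top share of signal blocks and covered 1.99% to 4.11% of the autosomes. Shortest in their groups were H3K27ac 0 h replicate 1 with 1450 peaks, H2AK119Ub 0 h replicate 3 with 2100 peaks and H2AK119Ub 24 h replicate 4 with 10964 peaks. The longest H3K27ac lists were 24 h replicate 1 with 15896 peaks and 12 h replicate 2 with 15789 peaks. As a check of the cell label, all 8 B cell marker genes listed (Cd79a, Cd79b, Ms4a1, Pax5, Ebf1, Cd22, Fcer2a and Cr2) had an H3K27ac peak at each time, 5 of them in every 0 h library. Of 7 T cell markers, Cd3d and Lck had a peak at 0 h and Cd3g joined them later, with a summed covered percent of 0 to 72.4 at 0 h and 52.4 to 59.0 at 24 h, against 168.0 to 608.2 and 545.3 to 709.7 for the B cell list. Cd3e, Cd4, Cd8a and Cd2 had no peak. Of 7 myeloid markers 1 had a peak at 0 h and 3 at 24 h (summed 0 to 5.46 and 0 to 37.3). Of 3 NK markers none had one at 0 h and Klrb1c did at 12 h (28.3 to 57.2) and 24 h (17.4 to 80.7). Of 3 erythroid markers Klf1 had a peak at 12 h only (0 to 38.8). The part of other cells in the results below was not tested.

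The DNA just before the annotated starts of the 3 inhibitor genes is shown first, since H3K27me3 at Cish, Suz12 at Socs3 and H3K27ac at Socs1 lay across it. The sequences are those of the reference genome (RefSeq, GRCm38.p6, the assembly of mm10), not of the Cast allele. Each runs 5′ to 3′ along the gene for the 250 bases before the start. Capitals mark matches, on either strand, to TTCNNNGAA (TTC and GAA with 3 bases between), the palindrome most STATs bind, or to 2 copies of GAAA with 2 bases between, a core of the interferon-stimulated element that complexes with STAT2 bind.
Cish (chr9:107296409-107296658, plus strand): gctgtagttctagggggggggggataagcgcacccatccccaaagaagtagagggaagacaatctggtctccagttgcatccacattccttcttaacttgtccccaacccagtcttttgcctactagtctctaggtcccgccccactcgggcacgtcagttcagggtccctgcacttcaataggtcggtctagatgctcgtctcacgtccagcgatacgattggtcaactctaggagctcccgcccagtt
Socs3 (chr11:117969367-117969616, minus strand): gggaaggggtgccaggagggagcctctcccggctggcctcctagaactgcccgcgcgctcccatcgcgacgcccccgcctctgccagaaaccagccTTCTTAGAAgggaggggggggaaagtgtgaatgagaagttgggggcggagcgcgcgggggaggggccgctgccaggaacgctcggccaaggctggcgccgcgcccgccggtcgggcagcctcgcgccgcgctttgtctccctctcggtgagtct
Socs1 (chr16:10785537-10785786, minus strand): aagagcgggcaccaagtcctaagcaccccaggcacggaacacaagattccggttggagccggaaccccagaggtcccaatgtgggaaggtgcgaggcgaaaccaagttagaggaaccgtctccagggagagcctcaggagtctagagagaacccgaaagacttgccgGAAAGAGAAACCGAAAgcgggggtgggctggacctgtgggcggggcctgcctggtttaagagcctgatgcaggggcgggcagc
Cish (chr9:107296659-107296678, plus strand, from its annotated start): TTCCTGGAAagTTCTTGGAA

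The windows searched ran from 250 bases before to 50 after each of 32851 annotated starts, of which 8.30% held TTCNNNGAA, 6.95% held TTC and GAA with 4 bases between, the wider spacing that STAT6 also binds, and 3.44% held the GAAA pair. Positions are counted from 0 at the start base, with negative numbers before it, and matches may overlap. All 9 genes had a window, and Stat4, Stat5a and Stat5b had 2 each. Cish held TTCNNNGAA 2 times, from positions 0 and 11, which is why that stretch is printed apart. Socs3 held it 1 time, from position -154. Socs1 held the GAAA pair 2 times in overlapping letters, from positions -83 and -77. Stat2 held the GAAA pair from position -222 and the wider TTC and GAA pair from position -210, and the downstream start of Stat4 held the GAAA pair from position -97. None of these patterns was found in the windows of Stat3, Stat5a, Stat5b and Stat6. CG dinucleotides per window were counted against a median of 7 over all windows. The count was 50 at the upstream start of Stat5b, reached by 0.855% of windows, then 31 at Socs3, 27 at the downstream start of Stat5a, 22 at Stat2, 18 at Socs1, 15 at Stat3 and 11 at Cish. At Stat4 it was 2 and 4. These are letter matches in the reference and do not show binding.

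**Figure D1:**
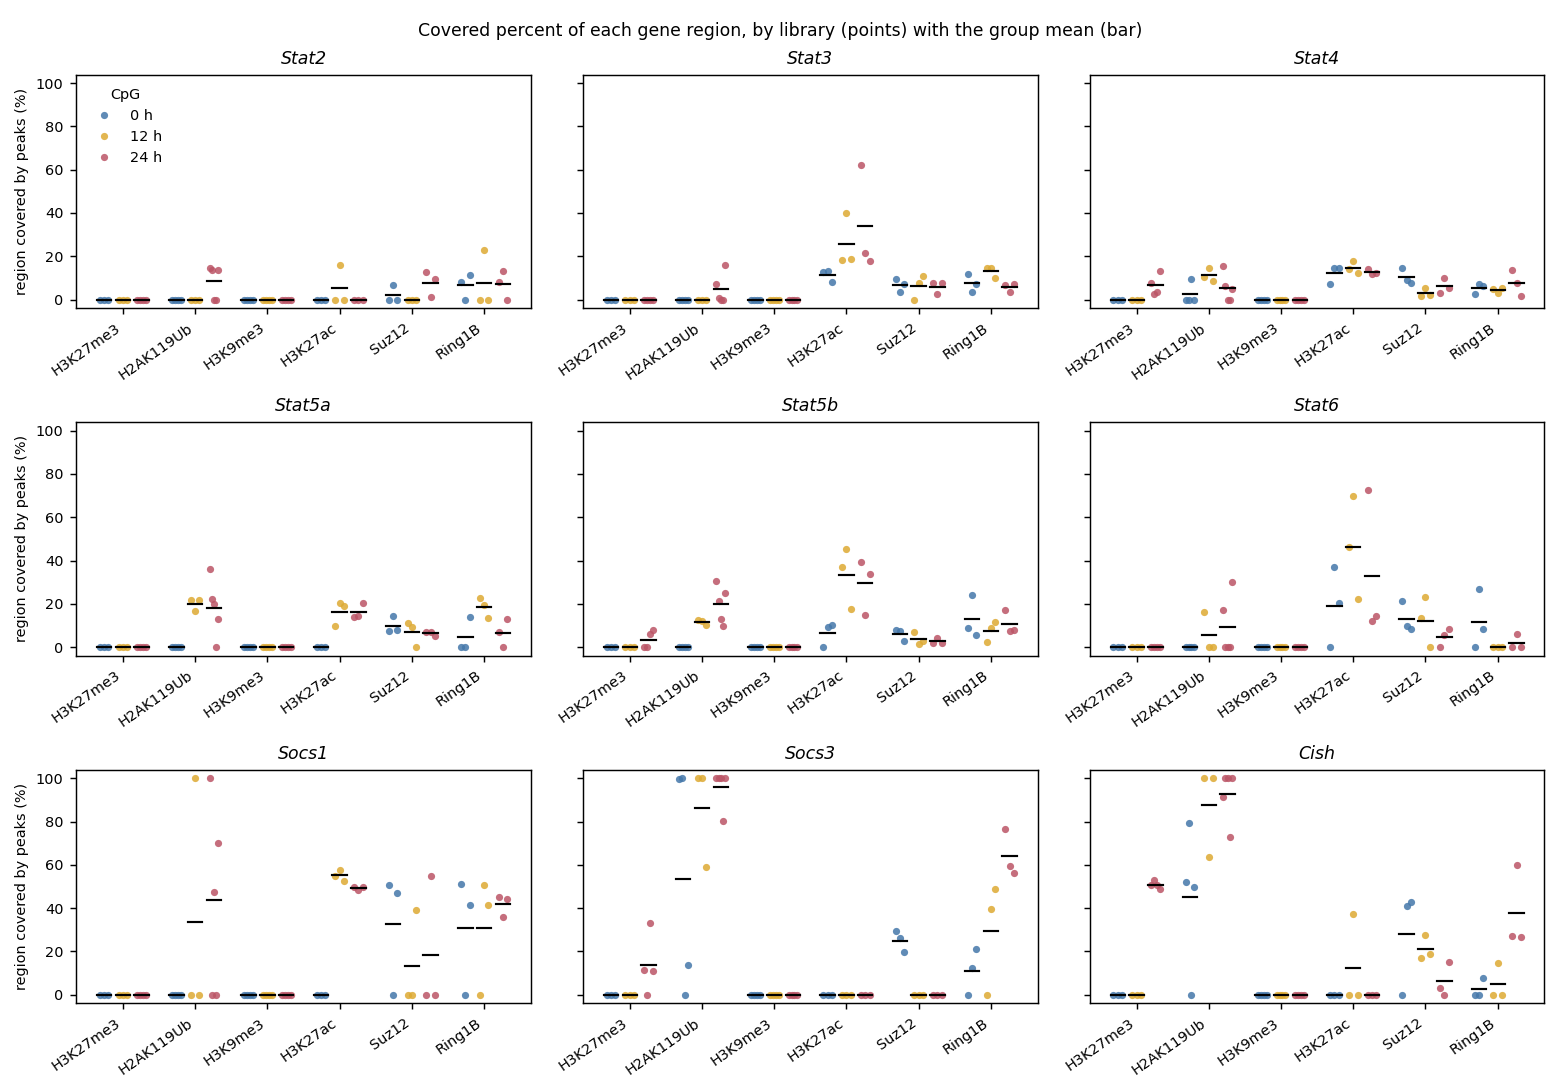
Percent of each gene region under peaks (vertical axis) for the 6 features, with 1 point per library, coloured by hours of CpG, and a bar at the group mean. Cish and Socs3 have high H2AK119Ub values and almost no H3K27ac, Socs1 gains H3K27ac after 0 h, and no gene has H3K9me3.

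Among the inhibitors, Cish, which restrains STAT5 signalling downstream of several cytokine receptors, lay at chr9:107296659-107302784 with no other gene in its region. H3K27me3 covered 0% of it in all 3 libraries at 0 h and all 3 at 12 h, and 50.6, 52.9, 50.8 and 48.8% in the 4 libraries at 24 h. The 24 h libraries were nearly alike and lay far above the others. In bulk cells, more cells with a mark and more of the mark per cell cannot be told apart. The difference between 24 and 0 h was 50.8 percentage points (SE 4.12; limma moderated F-test over the 3 times, Benjamini-Hochberg adjusted over all genes tested for the mark, adjusted p = 9.92e-05). The median difference of the 11914 genes tested was 28.9 points, and 56.5% of them were called higher at 24 than at 0 h, that is, they passed an adjusted p of 0.05 with an unadjusted contrast p also under 0.05. Cish was tested only because its 24 h libraries had peaks, since a gene needed a peak in 3 libraries. The stretch covered in at least 2 of the 24 h libraries was chr9:107294659-107299807, from the upstream edge of the region to 3148 bases after the start. It held the printed bases and the pair of TTCNNNGAA matches.

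H2AK119Ub was at Cish before stimulation. It covered 52.0, 79.4, 0 and 49.8% of the region in the 4 libraries at 0 h, 100, 63.4 and 100% at 12 h, and 91.4, 100, 100, 72.7 and 100% at 24 h. The 0% belongs to the shortest 0 h list, and the ranges at 0 and 24 h overlap. The difference between 24 and 0 h was 47.5 points (SE 14.5, limma adjusted p = 0.0489), where the median of all genes was 18.003 points and 31.0% of the 13845 genes tested were called higher. Between 12 and 0 h it was 42.5 points (SE 16.5), and 22.0% of all genes were called higher. The call did not hold throughout. With coverage scaled by each list's share of the autosomes the difference became -25.4 points (limma adjusted p = 0.659), and without 0 h replicate 3 it was 32.4 points (limma adjusted p = 0.118). The call was also lost without any other single library except 0 h replicate 2, 12 h replicate 2 and 24 h replicate 4 (limma adjusted p from 0.0652 to 0.0987). The mark covered 5263 bases around the start in at least 2 of the 0 h libraries, up to 3262 bases after it, and the whole 10126-base region at 12 and at 24 h.

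Ring1B, the ubiquitin ligase subunit, covered 0, 0 and 7.57% of the Cish region at 0 h, 0, 14.6 and 0% at 12 h, and 27.3, 59.8 and 26.7% at 24 h. All 24 h libraries lay above all earlier ones, and the difference of 35.4 points (SE 9.49) did not pass the test (limma adjusted p = 0.257). At 24 h the peak spanned the start in 3 of 3 libraries, against 0 of 3 at 0 h and 0 of 3 at 12 h. Suz12 covered 0, 40.9 and 42.8%, then 17.0, 27.4 and 18.6%, then 3.16, 0 and 15.2% (limma adjusted p = 0.667). The 0 h range overlapped both later ones, while every 12 h library lay above every 24 h one. H3K27ac was seen in 1 of 9 libraries, 12 h replicate 2, the longest list of its group, at 37.4%.

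Socs3, which shuts off signalling of the IL-6 receptor family through JAKs, lay at chr11:117966079-117970336, also with no neighbour in its region. It had no H3K27ac peak in any of the 9 libraries. H2AK119Ub covered 99.6, 100, 0 and 13.9% at 0 h, 100, 100 and 59.2% at 12 h, and 100, 100, 100, 80.0 and 100% at 24 h. Coverage was complete or nearly so in 2 of 4 libraries before stimulation, the 0% again being the shortest list. The difference of 42.6 points between 24 and 0 h (SE 20.5) did not pass (limma adjusted p = 0.214), and it was -39.8 points after scaling by autosomal coverage. H3K27me3 was absent from all libraries at 0 and 12 h and covered 11.5, 0, 32.9 and 11.0% at 24 h (difference 13.9 points, SE 6.04, limma adjusted p = 0.0937). What was shared by at least 2 libraries was chr11:117971389-117972336, at the upstream edge of the region and not at the start.

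Neither Polycomb subunit passed the test at Socs3. Suz12 covered 29.5, 26.0 and 19.5% at 0 h and 0% in all 6 later libraries. The 0 h libraries therefore stood apart from every later one, and the peak shared by at least 2 of them, chr11:117968196-117970527, lay across the start. The difference of -25.0 points (SE 4.22) did not pass (limma adjusted p = 0.0589). No gene of 18049 passed for Suz12, or 0%, while 1582 had an unadjusted p under 0.05 in limma, the 1 tool run. Socs3 passed when values were put on a log2 scale (limma adjusted p = 0.0161) or when the weaker peaks of each list were left out (0.0282). Ring1B at Socs3 covered 0, 12.1 and 21.0% at 0 h, 0, 39.6 and 49.0% at 12 h, and 76.3, 59.6 and 56.3% at 24 h. All 24 h libraries were above all earlier ones, the difference between 24 and 0 h was 53.0 points (SE 13.7), and it did not pass (limma adjusted p = 0.311). Ring1B calls were rare in general, at 15 of 17641 genes or 0.085%, with 1540 at an unadjusted p under 0.05. The stretch with Ring1B in at least 2 libraries was 863 bases at 0 h, 2085 at 12 h and 6224 at 24 h, the last reaching 5085 bases past the start.

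Socs1, a direct inhibitor of JAK kinases best known for damping interferon and IL-4 signals, lay at chr16:10783808-10785536 with no neighbour in its region. Its H3K27ac values were 0, 0 and 0% at 0 h, 55.0, 57.5 and 52.7% at 12 h, and 49.9, 48.3 and 49.5% at 24 h. The stimulated libraries were close to one another and did not overlap the unstimulated ones. The difference was 55.1 points between 12 and 0 h and 49.2 points between 24 and 0 h (SE 8.30 for each, limma adjusted p = 0.0290). All genes had a median of 10.4 and 12.0 points, and 1.25% of 9342 were called higher at 12 than at 0 h and 1.45% at 24 than at 0 h. Socs1 was the 1 gene of the 9 to pass for H3K27ac. It was tested through its 6 stimulated libraries alone. After scaling by autosomal coverage the difference was 46.1 points but the gene did not pass (limma adjusted p = 0.0914). The call was also lost without 0 h replicate 1, 2 or 3, without 12 h replicate 1 and without 24 h replicate 3 (limma adjusted p = 0.0745, 0.226, 0.163, 0.0964 and 0.0789), with differences between 48.9 and 49.7 points over all libraries left out. The acetylated stretch was chr16:10784385-10787457 at 12 h and chr16:10784411-10787248 at 24 h, both across the start and the printed interferon-type matches.

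Polycomb features at Socs1 lay on the same stretch without a passing change. Ring1B covered 51.2, 0 and 41.4% at 0 h, 0, 50.8 and 41.2% at 12 h, and 44.9, 36.0 and 44.0% at 24 h, with overlapping ranges (limma adjusted p = 0.928). Suz12 covered 50.6, 0 and 46.8%, then 0, 0 and 39.3%, then 0, 54.9 and 0% (limma adjusted p = 0.868). H2AK119Ub was absent at 0 h and covered 0, 100 and 0% at 12 h and 100, 0, 47.6, 0 and 70.2% at 24 h (limma adjusted p = 0.295). It ranged from none to complete within a group. No library had H3K27me3 at Socs1.

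**Figure D2:**
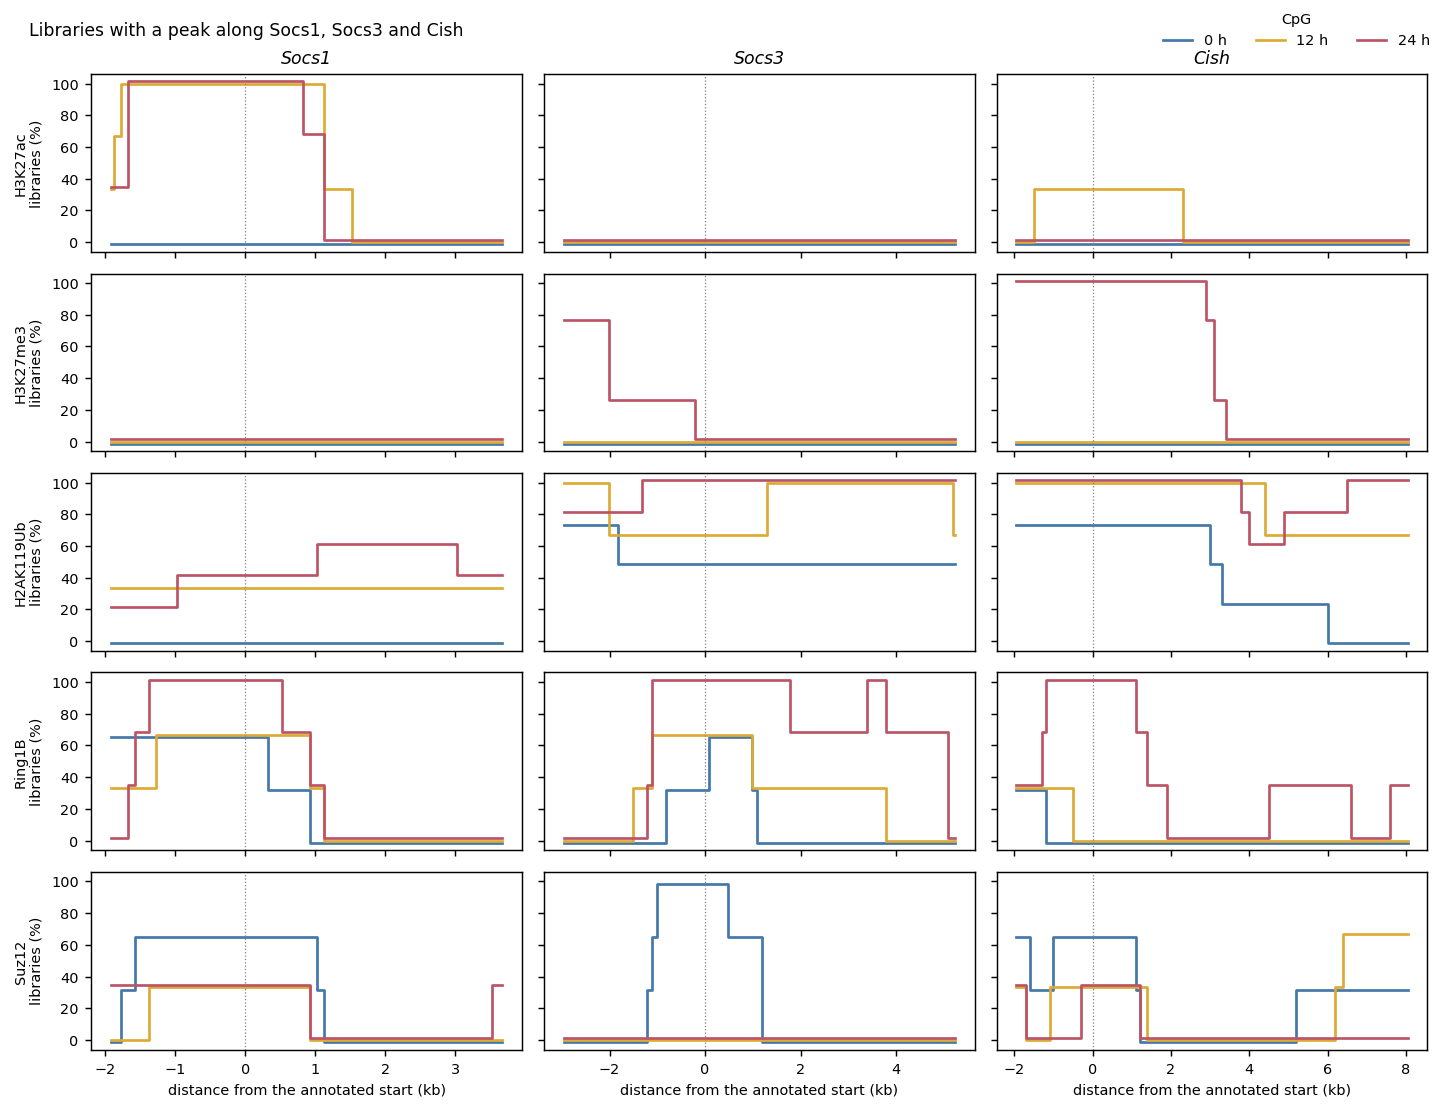
Share of a group's libraries with a peak (vertical axis, %) along Socs1, Socs3 and Cish, against distance from the annotated start (dotted line, kb) for 5 features, with the times offset slightly so that lines do not hide each other. Acetylation appears over the Socs1 start at 12 and 24 h, Suz12 is over the Socs3 start at 0 h only, and H3K27me3 covers the Cish start in 4 of 4 libraries at 24 h.

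Among the STAT genes, Stat4, which carries IL-12 signals and is best known from T and NK cells, had 2 annotated starts with different marks. Its region on chromosome 1 is the longest of the 9 at 124084 bases. The upstream start at base 51987148 lay under an H3K27me3 peak in 0 of 3, 0 of 3 and 4 of 4 libraries at 0, 12 and 24 h, and under an H3K27ac peak in none of 9. The downstream start at base 52008240 lay under an H3K27ac peak in 3 of 3 libraries at each time and under H3K27me3 in none of 10. Over the whole region H3K27me3 was 0% at 0 and 12 h and 7.63, 2.77, 3.42 and 13.0% at 24 h. The 24 h libraries all lay above the others (difference 6.71 points, SE 2.13, limma adjusted p = 0.0303), by less than the median of 28.9 points over all genes, and the gene entered the test through them alone. The call was lost without 0 h replicate 1 or 2, without any one 12 h library or without 24 h replicate 1 (limma adjusted p from 0.0532 to 0.0679). In the window of 1 kb either side of the starts H3K27me3 covered 0% in all 6 earlier libraries and 50.0% in all 4 at 24 h, with no spread within a group, so no p is given for it. At 24 h the H3K27me3 stretches, chr1:51985106-51989345 and chr1:51995451-52001251, shared 0 bases with the acetylated ones, chr1:52007470-52015268 and chr1:52017588-52025273.

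H3K27ac at Stat4 covered 7.12, 14.5 and 14.7% at 0 h, 14.1, 17.6 and 12.4% at 12 h, and 14.0, 11.7 and 12.4% at 24 h, overlapping throughout (limma adjusted p = 0.912). The low 0 h value is that of the shortest H3K27ac list. H2AK119Ub covered 0, 0, 9.47 and 0%, then 10.4, 14.6 and 8.71%, then 15.6, 6.05, 0, 0 and 4.94% (limma adjusted p = 0.194). At 12 h the ubiquitylated stretch shared by at least 2 libraries, chr1:51995549-52005715, ended before the downstream start. At 24 h a stretch shared by at least 2 libraries, chr1:52006934-52013878, lay across that start, which was covered in 2 of 5 libraries. Of the acetylated bases of Stat4 at 24 h, 41.4% were in H2AK119Ub stretches.

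**Figure D3:**
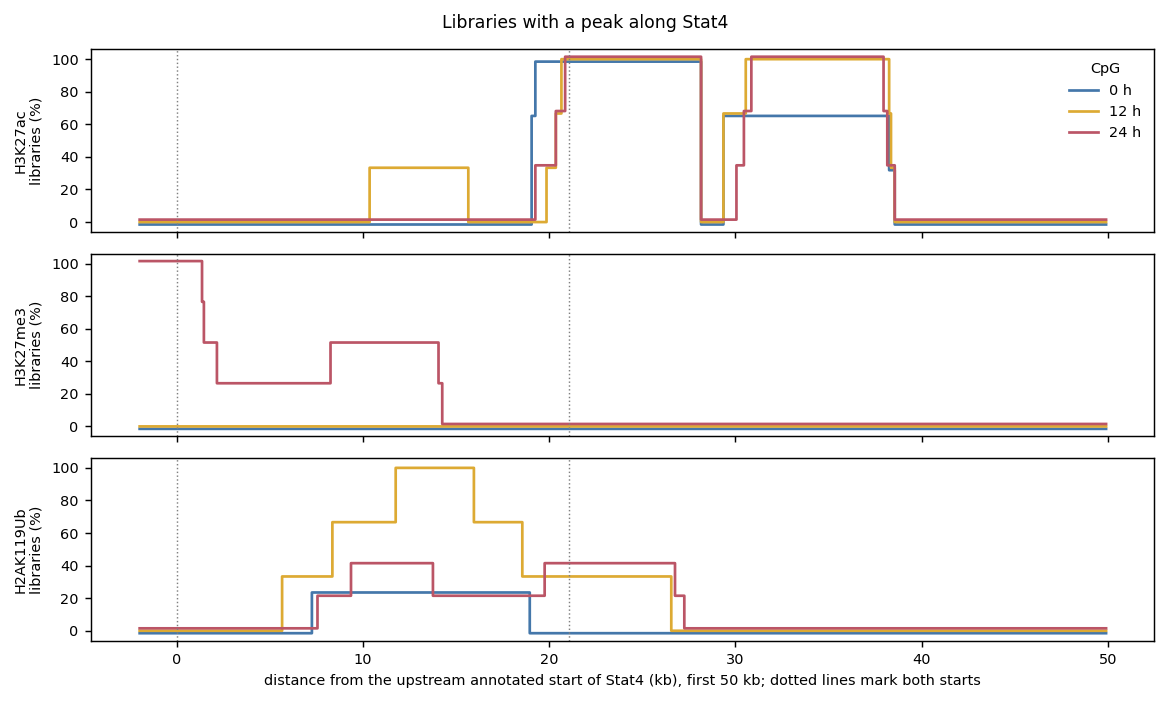
Share of a group's libraries with a peak (vertical axis, %) over the first 50 kb from the upstream start of Stat4 (horizontal axis, kb), with both annotated starts dotted. H3K27me3 at 24 h lies at the upstream start and H3K27ac at all times covers the downstream start.

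Stat5b, Stat5a and Stat3 are neighbours on chromosome 11, and their regions overlap, so their values are not separate measurements. STAT5A and STAT5B are close relatives that transmit IL-2 and IL-7 family signals and growth hormone. Stat5b had H2AK119Ub in 0 of 4 libraries at 0 h, at 12.4, 12.2 and 10.1% at 12 h, and at 30.3, 21.4, 13.0, 9.62 and 25.1% at 24 h. Every stimulated library was above every unstimulated one. The difference was 11.6 points between 12 and 0 h (SE 5.23) and 19.9 points between 24 and 0 h (SE 4.59, limma adjusted p = 0.0194), close to the 18.003 points of the median gene. Stat5b entered the test only through its 8 stimulated libraries. It passed after scaling by autosomal coverage too, but not without any one of the 0 h libraries (limma adjusted p from 0.0513 to 0.0593), whose values were all 0. Stat5b and Cish were the 2 of 9 genes called for H2AK119Ub, against the 31.0% of all genes called higher at 24 h.

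At 12 h the H2AK119Ub stretch was chr11:100850998-100861004, from just upstream of a Stat5b start past the Stat5a starts to the edge of the region. At 24 h it began at base 100850137 and a further stretch, chr11:100820141-100828674, lay over the other Stat5b start, which was covered in 4 of 5 libraries. Stat5a values followed: 0% in the 4 libraries at 0 h, 21.7, 16.6 and 21.6% at 12 h, and 36.2, 22.1, 20.1, 0 and 12.9% at 24 h (difference 18.3 points, SE 6.26, limma adjusted p = 0.0585). The 0% at 24 h is that of replicate 4, the shortest list of the group. Without that library Stat2, Stat5a, Stat5b and Cish, 4 genes, passed for H2AK119Ub. With all libraries kept, 33.2% of all genes tested passed, and the share without that library is not given here. Stat2 and Stat5a had no peak at 0 h and entered the test through stimulated libraries alone, so their passing is a description and not support.

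H3K27ac in this cluster was higher in value after stimulation without passing. Stat5a had 0, 0 and 0% at 0 h, 9.51, 20.2 and 19.1% at 12 h, and 14.0, 14.2 and 20.3% at 24 h, with no overlap between 0 h and later (difference 16.1 points between 24 and 0 h, SE 4.87, limma adjusted p = 0.142). Both of its starts were acetylated in 0 of 3, 3 of 3 and 3 of 3 libraries, and both were under H2AK119Ub in 0 of 4, 3 of 3 and 4 of 5. At 24 h the acetylated bases of Stat5a were 100% within H2AK119Ub stretches, and 65.7% of the ubiquitylated bases were acetylated, in libraries of separate antibodies. Stat5b had 0, 9.17 and 9.98%, then 36.9, 45.5 and 17.7%, then 39.5, 14.8 and 34.0%, again with no overlap (difference 23.0 points, SE 10.1, limma adjusted p = 0.241). Its start at base 100850581 was acetylated in 0 of 3, 2 of 3 and 3 of 3 libraries, while the start at base 100822570 was acetylated in 2 of 3 before stimulation. Stat5b also had H3K27me3 in 2 of 4 libraries at 24 h, at 6.11 and 7.78%, too few for the test. Of its 24 h H3K27me3 bases 51.7% were in acetylated stretches.

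Stat3, the transducer of IL-6, IL-10 and IL-21 signals, was acetylated at its start in 9 of 9 libraries. Its H3K27ac covered 12.6, 13.2 and 8.30% at 0 h, 18.3, 40.1 and 18.6% at 12 h, and 62.1, 21.7 and 17.7% at 24 h. Every stimulated library lay above the unstimulated ones, the difference of 22.5 points (SE 12.5) did not pass (limma adjusted p = 0.442), and it was -1.34 points after scaling. Suz12 peaks lay on the same start in 3, 2 and 3 of 3 libraries and Ring1B peaks in 3 of 3 at each time, and neither passed the test (limma adjusted p = 0.996 and 0.723). At 24 h, 100% of the Suz12 and 100% of the Ring1B bases of Stat3 shared by at least 2 libraries were in its acetylated stretches. H2AK119Ub was absent at 0 and 12 h and covered 7.11, 0.801, 0, 0 and 15.7% at 24 h (limma adjusted p = 0.262).

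**Figure D4:**
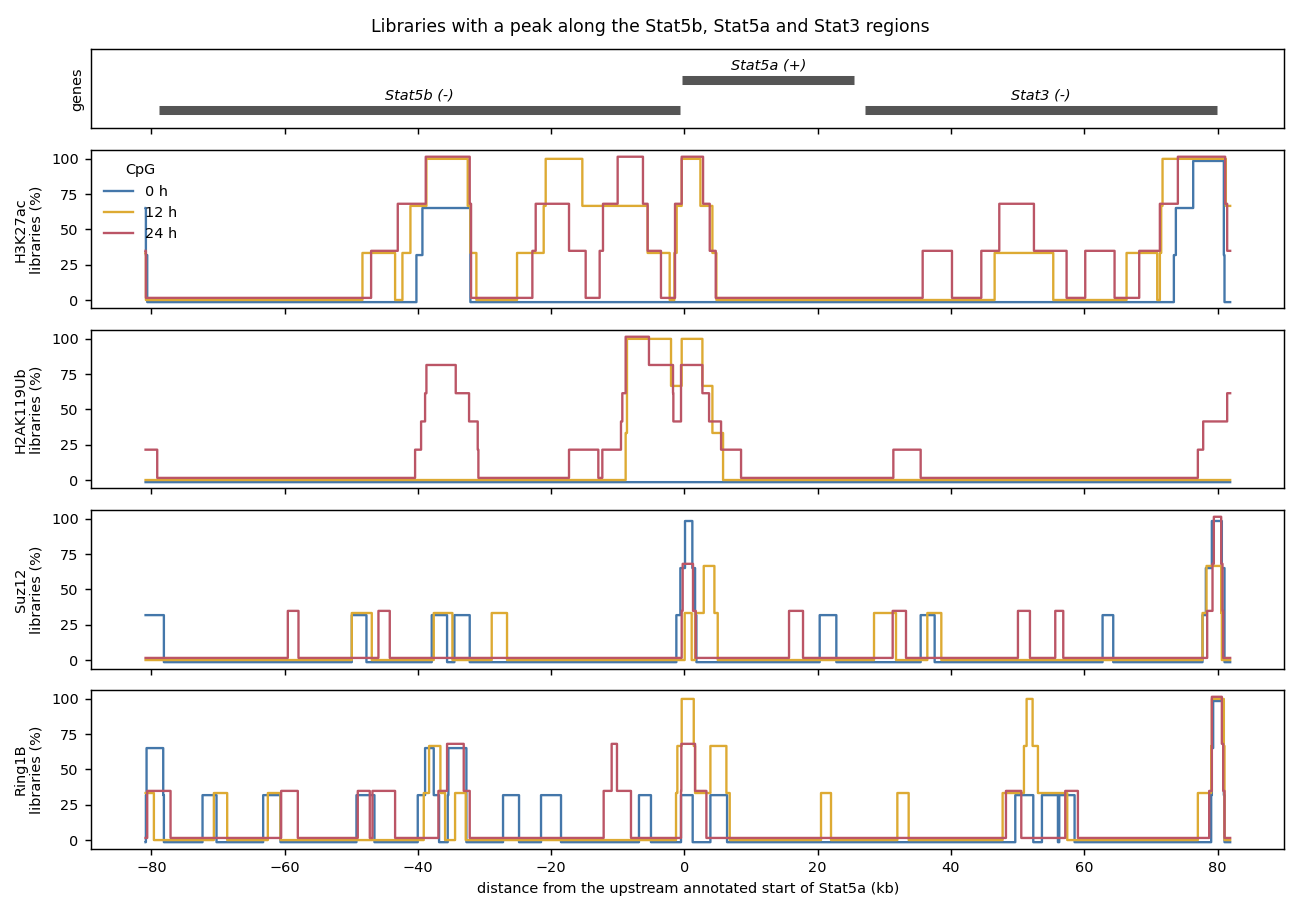
Genes (top, strand in brackets) and the share of a group's libraries with a peak (vertical axes, %) for 4 features across the Stat5b, Stat5a and Stat3 regions, by distance from the upstream start of Stat5a (kb). H2AK119Ub is absent at 0 h, and Suz12 and Ring1B peaks recur at the Stat5a and Stat3 starts.

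Stat6, the mediator of IL-4 and IL-13 signals and so of IgE switching in B cells, had H3K27ac at 0, 36.8 and 20.2% at 0 h, 46.5, 70.0 and 22.0% at 12 h, and 72.6, 12.0 and 14.2% at 24 h. The groups overlapped (limma adjusted p = 0.562), and the 72.6% comes from 24 h replicate 1, the longest list of its group, which also held the high Stat3 value. Without it the difference between 24 and 0 h was -5.89 points. H2AK119Ub covered 0% in all 4 libraries at 0 h, 16.1, 0 and 0% at 12 h, and 17.1, 0, 0, 0 and 30.1% at 24 h (limma adjusted p = 0.412). Stat2, a transducer of type I interferon signals, had the least acetylation of the 6 STAT genes described here. A peak was seen in 1 of 9 libraries, 12 h replicate 2, the longest list of its group, at 15.8%. H2AK119Ub at Stat2 was 0% in all libraries at 0 and 12 h and 14.6, 13.9, 0, 0 and 13.8% at 24 h (difference 8.45 points, SE 3.20, limma adjusted p = 0.0810), over the start in 3 of 5 libraries. Neither gene had an H3K27me3 peak in any of 10 libraries, and the same held for Stat3, Stat5a and Socs1, so that 3 of the 9 genes (Stat4, Socs3 and Cish) were tested for that mark, each through its 24 h libraries.

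Suz12 and Ring1B covered little of the STAT genes, and no difference passed. For Suz12 the STAT genes lay between 0 and 23.3% in all libraries, and for Ring1B between 0 and 26.7%. The smallest limma adjusted p among the 6 STAT genes was 0.623 (Stat2, Suz12) and 0.635 (Stat5a, Ring1B). Stat5a had Ring1B at 0, 0 and 14.0% at 0 h, 22.6, 19.5 and 13.6% at 12 h, and 7.08, 0 and 12.7% at 24 h. H3K9me3 had no peak in any of the 9 regions in any of 12 libraries, while 2332 other genes were tested for it and 1219 passed.

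**Figure D5:**
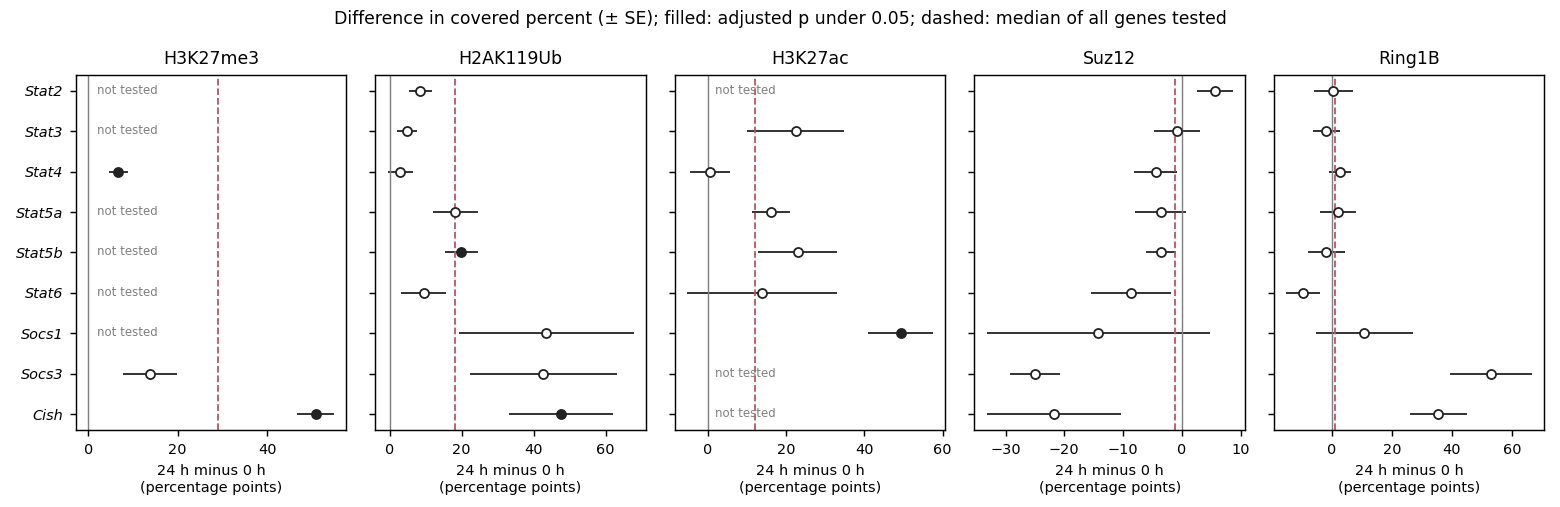
Difference in covered percent between 24 and 0 h (horizontal axis, percentage points, ± SE) for each gene and 5 features, with filled points past an adjusted p of 0.05 and a dashed line at the median of all genes tested. For H3K27me3 Cish lies above the median line, and Stat4 and Socs3 lie below it. For H2AK119Ub Cish, Socs1, Socs3, Stat5b and, barely, Stat5a lie above it. For H3K27ac Socs1, Stat3, Stat5a, Stat5b and Stat6 lie above it, of which Socs1 alone is filled. For Ring1B Socs3, Cish, Socs1, Stat4 and Stat5a lie above it, none of them filled.

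In order of mean H2AK119Ub at 24 h the genes were Socs3 (96.0%), Cish (92.8%), Socs1 (43.6%), Stat5b (19.9%), Stat5a (18.3%), Stat6 (9.44%), Stat2 (8.45%), Stat4 (5.33%) and Stat3 (4.73%). The ranges over libraries of each neighbouring pair overlapped, so no neighbours in this order differed beyond their spread. The short regions lead this order, from 5729 bases for Socs1 to 10126 for Cish, against 22033 to 124084 for the STAT genes, and a single peak fills more of a short region. In mean H3K27ac at 24 h the order was Socs1 (49.2%), Stat3 (33.8%), Stat6 (33.0%), Stat5b (29.4%), Stat5a (16.1%) and Stat4 (12.7%), with Stat2, Socs3 and Cish at 0%. Again the ranges of neighbours overlapped among the genes with peaks.

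The course over the 18 means (6 antibodies at 3 times) was compared as a description, without a test, since means of a mark share their libraries. Among the 9 genes Socs3 and Cish were most alike (Pearson r = 0.897), then Socs1 and Stat5b (0.879), and the least alike were Stat3 and Cish (-0.248). Of genes elsewhere in the genome, among 11724 to 11764 with enough peaks, Cish was most like Spef1 (r = 0.985) and Cd247 (0.966), and Socs3 was most like Tmem191c (0.966) and Cntnap1 (0.933). Socs1 was most like Cabin1 (0.973) and Fam72a (0.969). Stat2 was nearest to Slc22a5 (0.890) and Rrp1b (0.874), Stat3 to Wdfy4 (0.991) and Fubp1 (0.987), and Stat4 to Vgll4 (0.925) and Ciao2b (0.905). Stat5a was nearest to Bcdin3d (0.962) and Slc35c2 (0.948), Stat5b to Rpl28 (0.975) and Dguok (0.967), and Stat6 to Zfp120 (0.986) and Pkib (0.977).

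The rest of the pathway was read from 87 listed genes, all found in the gene table. For H3K27me3, 35 had enough peaks to be tested and 23 were called, all higher at 24 than at 0 h: 11 of 14 ligands tested, 11 of 16 cytokine receptors and 1 of 3 other SOCS genes. Over all genes tested for the mark the share called higher was 56.5%, so these counts are read against a high background. The median difference over those tested was 71.4 points for ligands and 16.3 for receptors, beside 28.9 for all genes. Il6, the ligand that signals through STAT3, went from 0% in every library at 0 and 12 h to 70.5% ± 15.1 at 24 h (SD, n = 4; limma adjusted p = 0.000253). Il15ra, the private chain of the IL-15 receptor, reached 17.6% ± 3.08 (SD, n = 4; limma adjusted p = 0.000269), and Tslp, an epithelial cytokine, reached 100% in all 4 libraries from 0% in the 3 at 0 h (limma adjusted p = 0.000425). All 3 genes had peaks in stimulated libraries alone and entered the test through them, so their p-values are a description and not support.

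For H2AK119Ub 54 of the 87 were tested and 20 called, 19 of them higher at 24 than at 0 h, with 13 of 24 receptors, 4 of 15 ligands and 3 of 4 JAK kinases among the 20. Of all genes tested 33.2% were called and 31.0% were called higher at 24 h, near the share of the list. The median difference was 22.4 points over the 54, beside 18.003 for all genes. Epor, the erythropoietin receptor, had no coverage in the 4 unstimulated libraries, then 86.6% ± 11.6 (SD, n = 3) after 12 h and 78.0% ± 22.8 (SD, n = 5) after 24 h (limma adjusted p = 0.000693). Il12a, a chain of IL-12, had 0, 49.8 and 62.7% at the 3 times as means (limma adjusted p = 0.00110), and Thpo, thrombopoietin, had 0, 44.3 and 52.1% (limma adjusted p = 0.00140). None of the 3 had a peak at 0 h, so each was tested through its stimulated libraries alone. For H3K27ac 1 of 46 passed, where 1.46% of all genes did. It was Il10, a cytokine that activates STAT3, with 0% in the 3 libraries at 0 h, 68.2% ± 27.6 (SD, n = 3) after 12 h and 86.9% ± 10.5 (SD, n = 3) after 24 h (limma adjusted p = 0.0438), also tested through stimulated libraries alone. For H3K9me3 only 1 of the 87 had enough peaks to be tested, and it passed. Of all genes tested 52.3% passed, and 1 gene gives no share to set beside that. The gene was Il3ra, a chain of the IL-3 receptor, with 0% at 0 h and 38.5% ± 27.2 at 24 h (SD, n = 4, limma adjusted p = 0.0229). At 24 h it had a peak in 3 of 4 libraries, and the lowest value was 0%. Il3ra too was tested through stimulated libraries alone. None of 53 passed for Suz12 and none of 58 for Ring1B. The 9 other inhibitors of the list, PIAS proteins and phosphatases, had no member tested for H3K27me3 and 1 for H2AK119Ub, which did not pass.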

How the data were processed

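CUT&RUN peak lists of 61 of 64 samples were used; the 3 IgG samples were not analysed here. Each library has its own list on build mm10, per the labels. The authors called peaks with SEACR on Cast reads, per the file names, where histone mark lists carry "norm relaxed" and those of Suz12 and Ring1B carry "non", a top share of 0.01 and "stringent". Trimmomatic 0.32, Bowtie2 2.3.4.1, Picard and deepTools 3.5.1 are named in the submitters' processing notes. How reads were assigned to alleles, and with which SEACR version peaks were called, is not given in the sources used here. Total and highest signal of each peak, deposited by the authors as coverage, served only to rank peaks within a list.

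Overlapping peaks were merged and the percent of each gene region covered was computed (Python 3.11.15, numpy 2.4.6, pandas 2.3.3, matplotlib 3.10.9). Gene positions came from the RefSeq table of GRCm38.p6. Genes with a peak in at least 3 libraries of a mark were fitted in R 4.3.3 with limma 3.58.1 (moderated F over the 3 times, trend and robust options) and adjusted by Benjamini-Hochberg over all of them at 0.05. All adjusted p-values are from this test. The fit was tested on simulated data. Shared stretches are bases under peaks in at least 2 libraries of a group.

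All 9 genes were named for all marks, from the pathway lists up to 3 per mark with the smallest p among those that passed, and per gene the 2 most alike over 1 Mb away with predicted models left out. Members and lists were chosen with earlier results of these data known. A marker gene and a pathway gene of the lists are not reported here. Alternatives covered filters, scaling, log2 values, stricter and equal-length lists, other regions, a replicate block and each library left out.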

Additional observations from a re-analysis of the deposited data

Results flagged for a closer look

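Among 16 groups of 4 or 5 libraries with differing values, 2 had a library that stood apart by Dixon's 95% limit. Chance marks about 1 in 20 groups of untied values, but in both groups the other libraries were tied at 0 or at 100%, so that rate does not hold and any differing library would be marked. At Stat4, H2AK119Ub at 0 h was 9.47% in replicate 3 and 0% in the other 3 libraries, although replicate 3 is the shortest list of that group. At Socs3, H2AK119Ub at 24 h was 80.0% in replicate 4, the shortest list of its group, and 100% in the other 4.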

How the results depend on the processing

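Each count below is the number of the 9 genes past the threshold. In the main fit 6771 of 11914 genes passed for H3K27me3, 33.2% of all genes for H2AK119Ub and 1.46% for H3K27ac. None passed for Suz12, and 0.085% did for Ring1B. The shares under each alternative are not given here. A moved count therefore cannot be told apart from a change in the share of all genes called. For H3K27me3 it was 2 and became 1 with no filter, with stricter peaks, without flanks or with regions counted as covered from 10%, and 0 with the stronger filter on the number of libraries with a peak or with equal-length lists, where the genes' few peaks no longer entered the test; over libraries left out it ran from 1 to 3. For H2AK119Ub it was 2 and became 1 with no filter or without flanks and 0 with equal-length lists; over libraries left out it ran from 0 to 4. For H3K27ac it was 1 and became 0 when scaled by autosomal coverage, with stricter peaks, equal-length lists or 5 kb flanks, and 2 on log2, in the 1 kb start window, with regions counted from 10% or with 0 and 24 h alone; over libraries left out it ran from 0 to 1. For Suz12 it became 1 on log2, with stricter peaks or with regions counted from 10% (Socs3, where the yes or no values then have no spread within a time and the call is no support), and for Ring1B 1 with stricter peaks. The cause was not tested. H3K9me3 gave 0 under every alternative run.

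With the replicate block the count was 2 for H3K27me3, 0 for H2AK119Ub and 0 for H3K27ac, and with the block and scaling together 1, 1 and 0; no other count moved. Deviations of same-numbered libraries from their group means had r from -0.214 to 0.0819, none over 0.1. With so few libraries per group this cannot tell whether the numbers pair them, and the counts with the block stand beside the others.

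Of 756 alternative values of single genes 654 kept direction and side, 41 lost and 22 gained the threshold and 39 turned. Differences between 24 and 0 h that turned, in percentage points, cause not tested, were as follows. For H2AK119Ub, scaled and then scaled with the replicate block, they were -5.39 and -5.37 at Stat4, -39.8 and -34.1 at Socs3, and -25.4 and -20.5 at Cish. For H3K27ac both scalings gave -1.34 at Stat3, -12.0 at Stat4 and -3.47 at Stat6, equal-length lists gave -1.29 at Stat3, and the start window gave -8.47 at Stat4. For Suz12 both scalings gave 0.723 at Stat3 and the start window gave 6.71 at Stat4. For Ring1B, regions without flanks gave -0.921 at Stat2, stricter peaks gave 1.13 at Stat3, -0.00887 at Stat4 and 3.44 at Stat5b, equal-length lists gave 1.66 at Stat5b, and the start window gave 1.05 at Stat3 and 9.81 at Stat5b. Over libraries left out H3K27ac ran from -1.90 to 1.90 at Stat4 and from -5.89 to 24.4 at Stat6, and Suz12 from -2.48 to 0.816 at Stat3. Ring1B ran from -2.87 to 3.94 at Stat2, -3.94 to 0.302 at Stat3, -0.432 to 5.56 at Stat4, -1.13 to 6.61 at Stat5a, -5.61 to 3.76 at Stat5b and -4.63 to 21.0 at Socs1.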
